A study of Sus scrofa with 6 samples.

Results

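RAB proteins are small GTPases that mark the membranes of the cell. The genes described here are the 50 whose pig symbol is RAB followed by a number and at most 1 letter, out of 19300 genes listed in at least 1 of 6 single pig oocytes. The reference table held 59 such symbols, and the remaining 9 (RAB7B, RAB9B, RAB12, RAB17, RAB19, RAB20, RAB33A, RAB34 and RAB43) had no gene of that ID in the deposited files and were not analysed here. All 50 symbols came from the NCBI gene ID in the files, and the naming rule uses no measured value.

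The oocytes were at the germinal vesicle stage, without maturation culture, and came from the fluid of antral follicles of 3 to 6 mm, as complexes with at least 3 layers of cumulus cells. They were sorted with brilliant cresyl blue (BCB), a dye that growing oocytes are generally held to decolourise and fully grown ones to keep. The comparison was of 3 BCB-negative with 3 BCB-positive oocytes, each freed of cumulus and zona pellucida and sequenced alone from poly(A) RNA after PCR amplification. The labels give no strain, age or genotype for the pigs, and name no animal or culture for any oocyte. The 3 cells of a class were therefore taken as 1 sample, without any test or p-value between classes, and the SDs printed describe only the spread between these cells.

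A RAB protein cycles between a GTP-bound form on a membrane, where it recruits effectors such as tethers and motors, and a GDP-bound form that GDP dissociation inhibitors hold in the cytosol. Exchange factors load GTP, GTPase activating proteins end the active state, and a geranylgeranyl anchor fixes the protein to the bilayer. Each RAB is known for particular compartments, from the endoplasmic reticulum to lysosomes. In oocytes the family is known mainly for RAB11A vesicles, which in mouse oocytes carry actin nucleators, and for RAB3A and RAB27A, which act in the exocytosis of cortical granules. No promoter or protein sequence is shown for these genes.

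The libraries held 7122749 to 9238987 expected counts, the estimated reads per gene. Levels are in FPKM, fragments scaled to gene length and library size, and a gene that an oocyte's table does not list counts as 0. Oocyte markers matched the labels, with all 12 listed, sums of 14549 to 29245 FPKM and ZP3, ZP4 and MOS at 1780.3 FPKM or more in every oocyte, while the oocyte transcription factor NOBOX stayed at 0.83 FPKM or less. Of 14 cumulus and granulosa markers 8 were listed, with summed levels of 152 to 259 FPKM in BCB-negative and 135 to 252 FPKM in BCB-positive oocytes, almost all KITLG and INHBA. FSHR, LHCGR, HAS2, FOXL2, NR5A2 and GJA1 had no listed gene matched to their symbol. For these a level of 0 cannot be told from a missing match. AMH, CYP19A1 and CYP11A1 never passed 0.76 FPKM. STAR was at 0.05 to 0.37 FPKM in the BCB-negative class and 0.4 to 1.79 FPKM in the BCB-positive class. Theca and stroma markers, 6 of 8 listed, summed to at most 3.33 FPKM in any oocyte. Of 8 blood and immune markers 2 were listed, CD3E, at 0.11 to 1.19 FPKM in BCB-negative and 2.37 to 4.6 FPKM in BCB-positive oocytes, and PTPRC. Of 6 endothelial markers 3 were listed, summing to 6.94 to 15.6 FPKM in BCB-negative and 8.77 to 23.0 FPKM in BCB-positive oocytes, mostly TEK. CDH5, VWF and EMCN likewise had no listed gene matched to their symbol. The part of CD3E and of the other markers in the RAB results was not tested. BCB-positive oocyte 3 stood apart: its log2(FPKM + 1) values correlated with those of the other oocytes at a mean of 0.874 across all genes, against 0.905 to 0.915 for the rest. Across the RAB genes it was again the lowest, at 0.882 against 0.905 to 0.936; genes are not independent replicates.

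RAB transcripts made up 0.316% to 0.398% of the summed FPKM of an oocyte, and in FPKM most of that share was RAB11A. The family summed to 3044, 2842 and 2979 FPKM in the BCB-negative oocytes, against 3120.1, 2825 and 2111 FPKM in the BCB-positive ones. The means were 2955 FPKM ± 103 (SD, n = 3) and 2685 FPKM ± 519 (SD, n = 3), and the ranges overlapped. RAB11A held 54.6% to 63.6% of the summed FPKM. Without RAB11A the sums averaged 1174 ± 67.1 and 1089 ± 167 FPKM. This majority depends on the short listed length of RAB11A, 651 bases, and does not hold in expected counts. RAB11A had 46690 counts over the 6 oocytes together, while the family had 25339 to 29834 in each oocyte. FPKM gives a share of the library, so differences in RNA content per oocyte are not seen. Of the 50 genes, 3 averaged 100 FPKM or more over the 6 oocytes, 20 lay from 10 to 100 FPKM, 15 from 1 to 10 FPKM and 12 below 1 FPKM. The 5 most abundant were RAB11A, RAB22A, RAB35, RAB7A and RAB2A, with 79.7% of the family's mean FPKM. Together they serve recycling endosomes, early endosomes, late endosomes and the path from the endoplasmic reticulum to the Golgi.

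**Figure D1:**
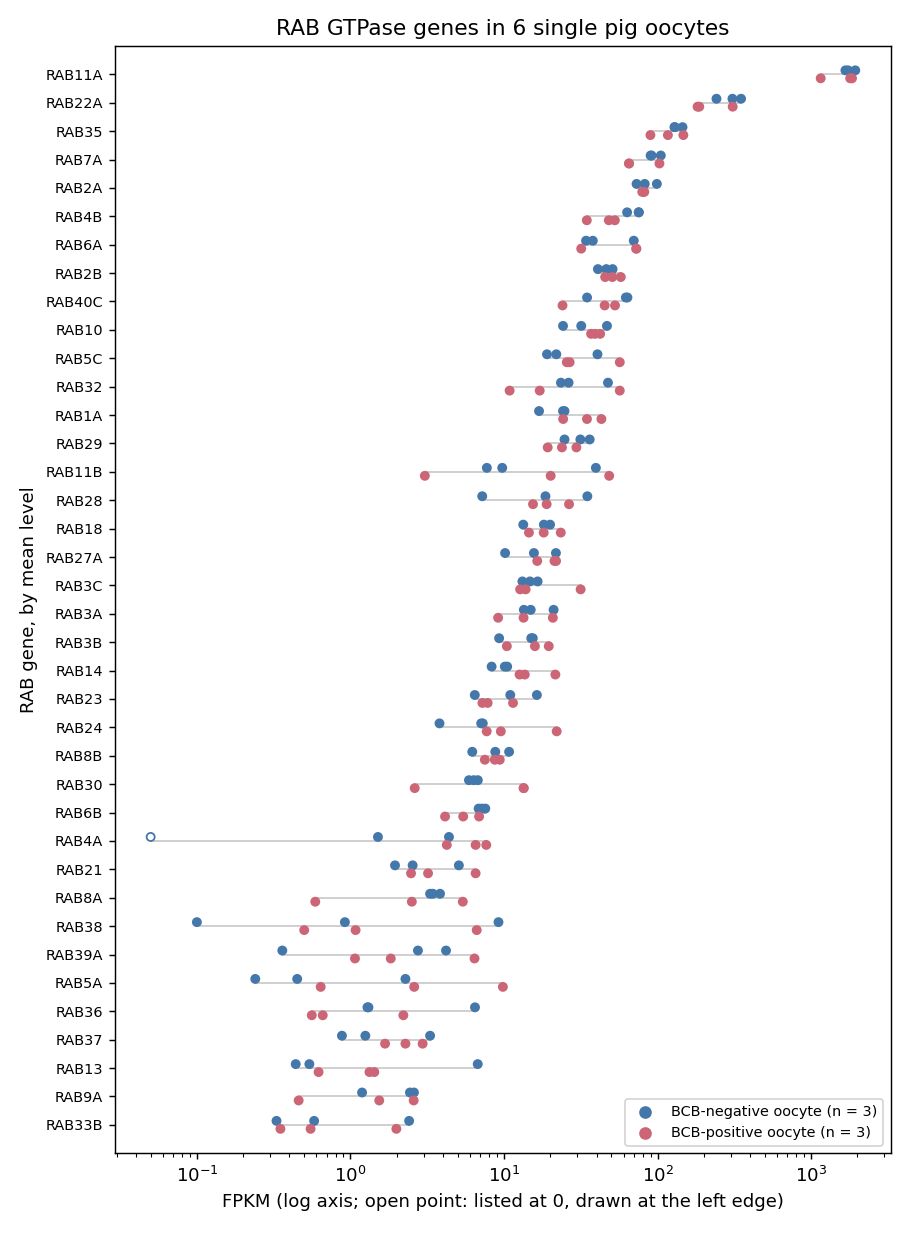
FPKM of the 38 RAB genes that averaged 1 FPKM or more, on a log axis, with 1 point per oocyte (blue BCB-negative, red BCB-positive; a grey line spans each gene's range). RAB11A stands alone, at 1153 FPKM or more in every oocyte, and for most genes the points of both classes lie among each other.

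Over the family, few members reached a 1.5-fold difference between the class means. With 3 oocytes per class and no test, such counts cannot show how many members differ between the classes. Of the 50 members, 38 had a mean of at least 1 FPKM and were compared. A passing member could be high in 1 class or 1 oocyte only. The BCB-positive class mean of log2(FPKM + 1) was at least 1.5-fold (0.58 on the log2 scale) higher for 5 of 38 (RAB4A, RAB5A, RAB24, RAB14 and RAB1A), or 13.2%, against 18.9% of all 11493 genes compared. It was at least 1.5-fold lower for 2 of 38 (RAB36 and RAB4B), or 5.26%, against 9.46% of all genes. With libraries scaled by size factors the split was 3 higher and 2 lower, and on a common sum of FPKM it was 5 and 1. The shares of all genes by fold were not computed under these scalings.

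The oocytes of the classes did not overlap for 2 members that were higher in BCB-positive oocytes (RAB14 and RAB24), or 5.26%, against 7.44% of all genes. They did not overlap for 1 member that was lower (RAB4B), or 2.63%, against 4.03% of all genes. The same 3 members were at least 1.5-fold apart, as were 5.75% of all genes that were higher and 2.66% that were lower without overlap. With all 6 oocytes the RAB shares rested on 1 or 2 members and lay close to or below those of all genes compared. These counts depend on single oocytes. Without BCB-positive oocyte 1, 9 of 38 members were lower without overlap, a larger share than the 10.17% of all genes. In that setting 4 of 38 were higher, against 17.2% of all genes. Without BCB-negative oocyte 1, 6 of 38 were higher, against 14.4% of all genes. Without BCB-positive oocyte 3, 4 of 38 were higher and 2 of 38 lower without overlap, against 11.5% and 7.65% of all genes. The median difference of the 38 members was 0.05, against 0.11 for all genes. Scaled by size factors these medians were -0.02 and 0.02, and on a common sum of FPKM 0.11 and 0.19, so the sign of the RAB median depends on the scaling while it lay under that of all genes each time. The class difference was smaller than the pooled SD between oocytes for 28 of 38 members, or 73.7%, and for 67.5% of all genes.

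**Figure D2:**
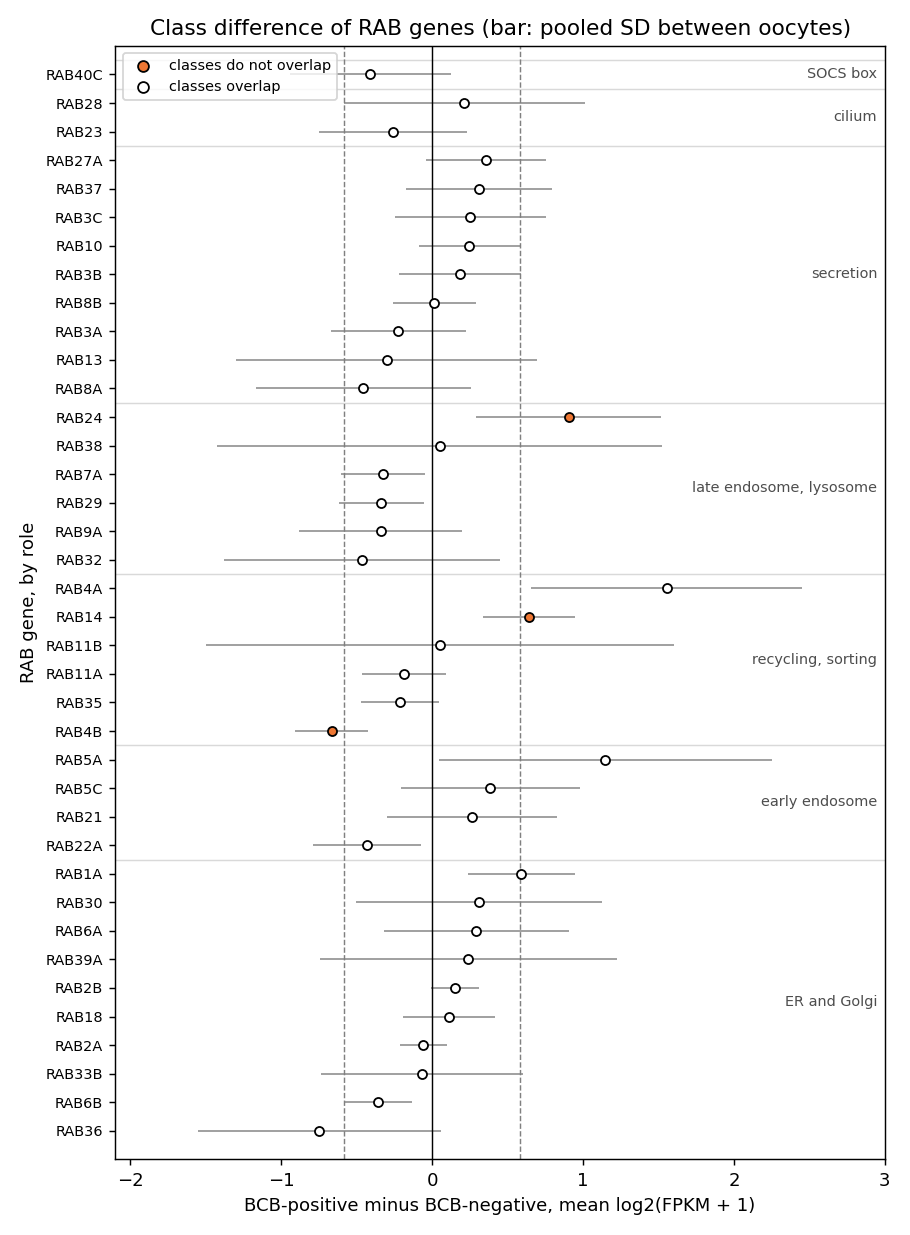
BCB-positive minus BCB-negative difference in mean log2(FPKM + 1) for the 38 compared RAB genes, grouped by role, with bars for the pooled SD between oocytes (n = 3 per class) and dashed lines at 1.5-fold. Orange points, RAB24, RAB14 and RAB4B, mark genes whose classes do not overlap; RAB4A at 1.55 and RAB5A at 1.15 have the widest differences but overlap.

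Recycling and sorting endosomes had the most abundant member. RAB11A, which marks recycling endosomes, was at 1936, 1670.4 and 1737 FPKM in the BCB-negative oocytes, against 1844, 1794 and 1153 FPKM in the BCB-positive ones, each in the order of oocytes 1 to 3. It ranked between 40 and 57 among all genes of an oocyte, and its classes overlapped, with BCB-positive oocyte 3 lowest. Its mean was 6.43 times that of RAB22A, the next gene, in FPKM but 1.95 times in expected counts. The listed length of RAB11A was 651 bases, against 2011 bases for RAB22A. All 5 members with a listed length under 700 bases (RAB11A, RAB1B, RAB5A, RAB28 and RAB32) had a length that is a multiple of 3, as a gene model with coding sequence alone would, against 39.5% of 2317 genes of that size with a single length. Their levels relative to longer models therefore depend on the model, while the comparison of classes within a gene does not. RAB11A was the most abundant member on either scale. Whether reads were divided between close paralogues was checked from the gene counts: they were whole numbers, within 0.005, in every oocyte for 48 of the 50 members, RAB11A and RAB11B included, against 83.4% of all genes. The exceptions were RAB22A and RAB26. Whole counts show only that reads were not split in fractions. They cannot show whether a read shared by paralogues was left out or given to the wrong gene.

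RAB11B, the close paralogue of RAB11A, had the highest pooled SD of the compared RAB genes, 1.55 on the log2(FPKM + 1) scale, next to 1.47 for RAB38. It was at 7.73, 9.73 and 39.6 FPKM in the BCB-negative oocytes, against 48.4, 20.1 and 3.05 FPKM in the BCB-positive ones. High and low oocytes thus occurred in both classes, a 15.9-fold range against 1.68-fold for RAB11A. RAB38, RAB5A and RAB39A, at lower levels, ranged more widely. RAB4A, from 0 to 7.66 FPKM, has no finite fold range. RAB25, the third relative of this branch and known from epithelia, was listed only in BCB-negative oocyte 3, at 0.52 FPKM.

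RAB35, which acts in fast recycling at the plasma membrane, was at 129, 129.6 and 145 FPKM in the BCB-negative oocytes, against 147, 117 and 89.8 FPKM in the BCB-positive ones. The BCB-positive oocytes spanned the BCB-negative ones. Its reads were assigned to a pair of transcripts in proportions that varied between oocytes, from 25.1% to 76.8% for the longer one, with no separation of the classes. In the annotation of Sscrofa11.1, which is not the build of the files, RAB35 overlaps BICDL1, which was at 2.03 to 11.9 FPKM.

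RAB4B, which sorts cargo from early to recycling endosomes, was at 63.3, 75.5 and 75.3 FPKM in the BCB-negative oocytes, against 48.1, 52.7 and 34.6 FPKM in the BCB-positive ones. Every BCB-positive oocyte lay below every BCB-negative one. The means were 71.3 ± 6.98 and 45.1 ± 9.40 FPKM (SD, n = 3 each), a difference, BCB-positive minus BCB-negative, of -0.67 in mean log2(FPKM + 1) with a pooled SD of 0.24. It came under 1.5-fold without BCB-positive oocyte 3, at -0.49, where an overlap could not arise, by construction. On a common sum of FPKM it was -0.57, also under 1.5-fold, and the classes still did not overlap. The strand used in counting is not given in the sources used here, so reads of genes that overlap cannot be told apart. RAB4B overlaps EGLN2 in the annotation, and EGLN2 was at 29.5 to 49.2 FPKM with a difference of -0.05.

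RAB4A, the paralogue of RAB4B in the same sorting step, had the largest difference of the family, in the other direction. It was at 4.38, 0 and 1.51 FPKM in the BCB-negative oocytes, against 4.24, 7.66 and 6.53 FPKM in the BCB-positive ones. The classes overlapped narrowly, through BCB-negative oocyte 1 and BCB-positive oocyte 1. The difference was 1.55 with a pooled SD of 0.90, and 0.93 without BCB-negative oocyte 2, in which the gene was listed at 0. With so low a level it depends on the pseudocount, and was 2.76 with 0.1 FPKM added and 0.71 with 5 FPKM added. RAB4A held 2.8% ± 3.3 of the pair's FPKM in the BCB-negative class, against 12.2% ± 3.9 in the BCB-positive class (SD, n = 3 each), with the highest BCB-negative share at 6.47% and the lowest BCB-positive share at 8.1%. The sum of both genes followed RAB4B: it was at 67.7, 75.5 and 76.8 FPKM in the BCB-negative oocytes, against 52.3, 60.3 and 41.1 FPKM in the BCB-positive ones.

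RAB14, which acts between the trans-Golgi network and endosomes, was at 10.1, 10.5 and 8.30 FPKM in the BCB-negative oocytes, against 13.7, 21.6 and 12.6 FPKM in the BCB-positive ones. All BCB-positive oocytes lay above the others, and BCB-positive oocyte 2 was highest. The difference was 0.64 with a pooled SD of 0.30, and 0.78 without BCB-positive oocyte 3. It came under 1.5-fold without BCB-positive oocyte 2, at 0.42, without BCB-negative oocyte 3, at 0.55, with size factors, at 0.55, and with 5 FPKM added, at 0.50. With size factors all BCB-positive oocytes stayed above the others. In the other cases an overlap could not arise, by construction. RAB15 averaged 0.55 FPKM and was not compared. It overlaps a noncoding RNA gene in the annotation, at 0.62 to 6.91 FPKM.

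**Figure D3:**
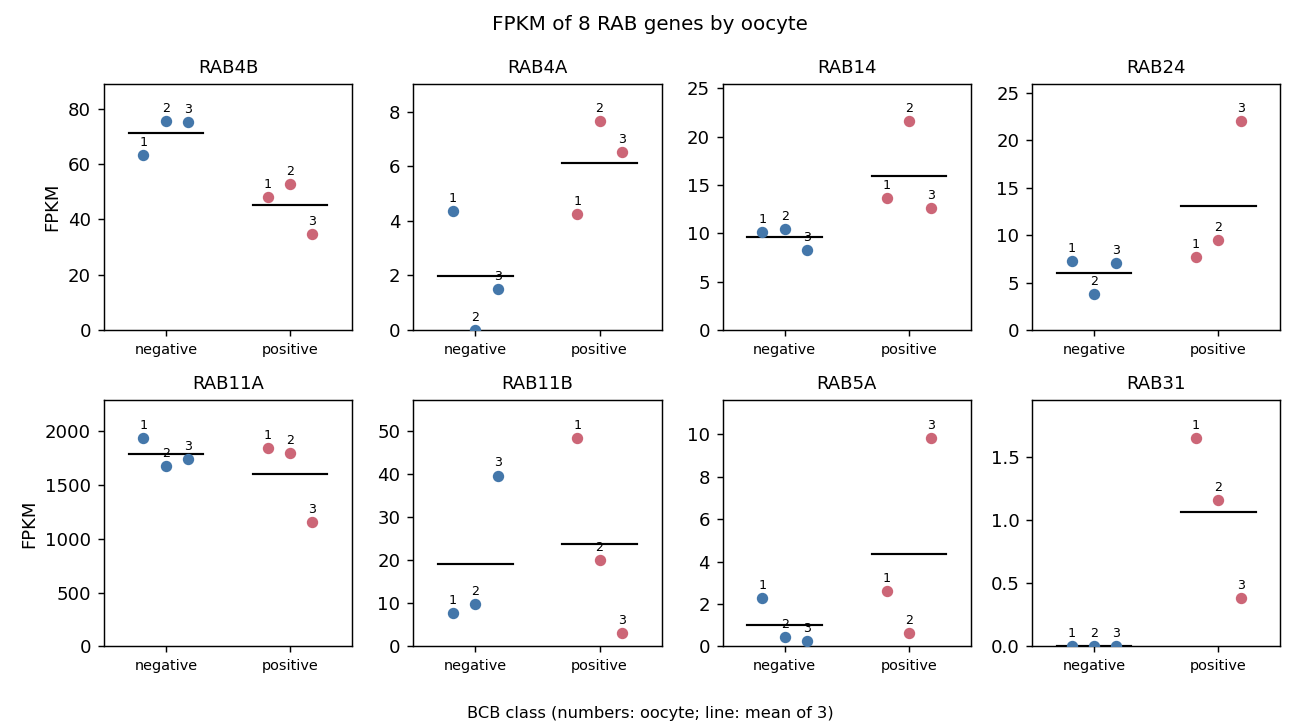
FPKM of 8 RAB genes on linear axes from 0, with 1 numbered point per oocyte and a line at the mean of each class. RAB4B (48.1, 52.7 and 34.6 FPKM in BCB-positive oocytes) lies below, and RAB14, RAB24 and RAB31 lie above, the BCB-negative oocytes, while RAB11B runs from 3.05 to 48.4 FPKM within the BCB-positive class.

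Late endosomes and lysosomes were served mainly by RAB7A, which directs fusion with lysosomes and is a textbook marker of late endosomes. RAB7A was at 91.3, 90.0 and 105 FPKM in the BCB-negative oocytes, against 103, 65.1 and 65.2 FPKM in the BCB-positive ones. A pair of BCB-positive oocytes lay below the BCB-negative range and the third inside it. RAB29, which is linked to the Golgi and lysosomes and recruits the kinase LRRK2, was at 31.4, 24.8 and 36.1 FPKM in the BCB-negative oocytes, against 29.6, 19.2 and 23.8 FPKM in the BCB-positive ones, again with overlap. RAB32 and RAB38 act in lysosome-related organelles. RAB32 was at 23.5, 47.5 and 26.3 FPKM in the BCB-negative oocytes, against 56.7, 17.1 and 10.9 FPKM in the BCB-positive ones, so the BCB-positive class held both the highest and the lowest value. RAB38 ranged 92-fold, from 0.10 FPKM in BCB-negative oocyte 2 to 9.20 FPKM in BCB-negative oocyte 3. RAB9A, of transport from late endosomes to the trans-Golgi network, averaged 1.80 FPKM.

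RAB24, known from autophagy, was at 7.27, 3.80 and 7.10 FPKM in the BCB-negative oocytes, against 7.71, 9.53 and 22.02 FPKM in the BCB-positive ones. The order was narrow, with 7.27 FPKM in BCB-negative oocyte 1 next to 7.71 FPKM in BCB-positive oocyte 1. The difference was 0.91 with a pooled SD of 0.61, and 0.48 without BCB-positive oocyte 3, under 1.5-fold. RAB24 overlaps NSD1, which was at 4.49 to 7.74 FPKM with a difference of 0.32. In expected counts the classes summed to 162 (95% Poisson interval 138 to 189) and 401 (363 to 442) for RAB24, and to 1930 (1845 to 2018) and 1366 (1295 to 1440) for RAB4B. For RAB14 the sums were 779 (725 to 836) and 1441 (1368 to 1517). These intervals cover the counting of reads only. They are too narrow for molecules, since PCR copies are not independent, and they leave out the spread between cells. The genes were picked because their classes did not overlap, so the intervals add no separate evidence.

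On early endosomes the main member was RAB22A, which acts in sorting towards recycling. RAB22A was at 242, 307 and 349 FPKM in the BCB-negative oocytes, against 308, 182 and 187 FPKM in the BCB-positive ones. As with RAB7A, BCB-positive oocytes 2 and 3 lay below all BCB-negative oocytes and BCB-positive oocyte 1 among them. Its shorter transcript of 1986 bases took 99.0% to 99.8% of its FPKM in every oocyte, and the transcript of 8075 bases the rest. RAB5, which controls the fusion of early endosomes, was present mainly as RAB5C, at 40.6, 19.0 and 21.9 FPKM in the BCB-negative oocytes, against 25.6, 26.7 and 56.7 FPKM in the BCB-positive ones. RAB5C made up 82.1% to 98.0% of the summed RAB5 level. RAB5A was at 2.28, 0.45 and 0.24 FPKM in the BCB-negative oocytes, against 2.60, 0.64 and 9.83 FPKM in the BCB-positive ones, with overlap. Its difference of 1.15 (pooled SD 1.10) rested on 82 expected counts and came under 1.5-fold without BCB-positive oocyte 3, at 0.43, and with 5 FPKM added, at 0.54. RAB5A overlaps PP2D1 in the annotation, at 0.58 to 5.05 FPKM with a difference of 0.04. RAB5B averaged 0.95 FPKM, and RAB21, which traffics integrins, 3.63 FPKM.

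RAB31, a relative of RAB22A, was listed at 0 in the 3 BCB-negative oocytes, against 1.65, 1.16 and 0.38 FPKM in the BCB-positive ones. It rested on 22 expected counts in BCB-positive oocytes. Against a floor of 3 counts set for the BCB-negative class, this was 6.51-fold higher as a share of the libraries' counts. That value leaves out the error of the 22 counts and the spread between cells, so it is no lower bound. With a mean of 0.53 FPKM RAB31 fell under the limit of 1 FPKM for comparison. RAB42, RAB44 and RAB1B were also at 0 in all BCB-negative oocytes, with 9, 13 and 1 expected counts in BCB-positive ones. RAB25 was at 0 in all BCB-positive oocytes, with 4 counts in BCB-negative ones.

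RAB genes of the endoplasmic reticulum and Golgi included the steadiest members. RAB2A, which acts between these compartments, was at 82.4, 98.85 and 72.9 FPKM in the BCB-negative oocytes, against 80.8, 81.9 and 79.4 FPKM in the BCB-positive ones. The BCB-positive values fell within the BCB-negative range. RAB2B, its paralogue, was at 40.85, 50.9 and 46.35 FPKM in the BCB-negative oocytes, against 45.5, 57.6 and 50.8 FPKM in the BCB-positive ones. Both had a pooled SD of 0.16, and RAB2A held 58.7% to 66.9% of the pair's FPKM.

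RAB6A, which acts in transport within and from the Golgi, varied more, at 69.9, 37.8 and 34.2 FPKM in the BCB-negative oocytes, against 72.5, 72.7 and 31.8 FPKM in the BCB-positive ones. Oocytes near 70 FPKM and oocytes under 40 FPKM occurred in both classes. RAB6B, described mostly from neurons, was at 4.13 to 7.55 FPKM and held 6.9% to 16.6% of the RAB6 pair. RAB1A, which controls traffic from the endoplasmic reticulum to the Golgi, was at 24.2, 24.7 and 16.9 FPKM in the BCB-negative oocytes, against 24.3, 43.0 and 34.7 FPKM in the BCB-positive ones. The classes overlapped only through BCB-positive oocyte 1, and the difference was 0.59 with a pooled SD of 0.35. It came under 1.5-fold with size factors, at 0.49, and with 5 FPKM added, at 0.52, and without BCB-positive oocyte 2 or 3 or BCB-negative oocyte 3, at 0.41, 0.56 and 0.42. RAB1B, its paralogue, had a single expected count in all 6 oocytes, in BCB-positive oocyte 1, on a model of 606 bases.

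RAB18, linked to lipid droplets and the endoplasmic reticulum, was at 13.3 to 23.4 FPKM with the classes among each other. RAB30 of the Golgi was at 5.91 to 6.75 FPKM in the BCB-negative class, while the BCB-positive class had 13.4, 2.62 and 13.4 FPKM, on both sides of the BCB-negative values. RAB30 overlaps PRCP in the annotation, at 0 to 7.75 FPKM. RAB36, linked to the Golgi, averaged 3.02 and 1.14 FPKM in the classes, a difference of -0.75 with a pooled SD of 0.80 that rested largely on BCB-negative oocyte 2, at 6.47 FPKM. Without that oocyte the difference of RAB36 was -0.18, and with 5 FPKM added it was -0.33. RAB33B, which binds autophagy proteins at the Golgi, averaged 1.03 FPKM, while RAB39A and RAB39B averaged 2.77 and 0.17 FPKM. In the annotation RAB33B overlaps a noncoding RNA gene at 19.3 to 34.3 FPKM, far above RAB33B itself. RAB39A overlaps SLC35F2, at 2.87 to 8.21 FPKM.

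Among RABs of secretion and the plasma membrane, RAB10 was the most abundant. RAB10, which acts in exocytosis and in the endoplasmic reticulum, was at 46.8, 31.8 and 24.2 FPKM in the BCB-negative oocytes, against 36.9, 42.2 and 39.2 FPKM in the BCB-positive ones, the latter inside the range of the former. The RAB3 genes, of regulated exocytosis, were present as RAB3A, RAB3B and RAB3C at like levels. RAB3A was at 13.5, 14.9 and 21.0 FPKM in the BCB-negative oocytes, against 20.8, 13.4 and 9.15 FPKM in the BCB-positive ones. RAB3C was highest in BCB-positive oocyte 3, at 31.5 FPKM against 12.7 to 16.5 FPKM in the other oocytes, and RAB3B ranged from 9.29 to 19.6 FPKM. RAB3D, described from exocrine glands, stayed at 0.12 to 2.49 FPKM. The 4 genes summed to 43.9, 44.2 and 49.3 FPKM in the BCB-negative oocytes, against 50.4, 47.0 and 51.2 FPKM in the BCB-positive ones. This sum had a pooled SD of 0.08, or 0.16 on a common sum of FPKM, against 0.41 to 0.53 for the 4 genes. A sum of genes that vary separately is steadier than its parts by construction.

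RAB27A, of granule docking, was at 10.16, 21.8 and 15.7 FPKM in the BCB-negative oocytes, against 16.5, 21.8 and 21.3 FPKM in the BCB-positive ones, with overlap. RAB27B had 9 expected counts in total, so RAB27A held at least 98.4% of the pair's FPKM. RAB8B and RAB8A, which act in exocytosis and ciliary traffic, averaged 8.56 and 3.18 FPKM. RAB13, of tight junctions, was highest in BCB-negative oocyte 3, at 6.74 FPKM against 0.44 to 1.43 FPKM in the others. RAB37 and RAB26, both linked to secretory granules, averaged 2.06 and 0.08 FPKM.

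RAB28, described from cilia and photoreceptors, was at 34.9, 7.21 and 18.6 FPKM in the BCB-negative oocytes, against 18.9, 15.4 and 26.5 FPKM in the BCB-positive ones, which fell inside the BCB-negative range. RAB23, which restrains Hedgehog signalling at cilia, was at 6.45 to 16.4 FPKM. RAB40C, which carries a SOCS box for ubiquitin ligases, was at 34.7, 62.1 and 63.6 FPKM in the BCB-negative oocytes, against 52.8, 45.2 and 24.0 FPKM in the BCB-positive ones, with overlap. Its relative RAB40B stayed at 1.03 FPKM or less, and RAB42 and RAB44 at 1.19 and 0.46 FPKM or less.

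By role group the counts were small. At least 1.5-fold higher were 1 of 10 compared members of the endoplasmic reticulum and Golgi, 1 of 4 of early endosomes, 2 of 6 of recycling endosomes, 1 of 6 of late endosomes and 0 of 9 of secretion, against 18.9% of all genes. At least 1.5-fold lower were 1 of 10 of the endoplasmic reticulum and Golgi, 1 of 6 of recycling endosomes and none of the other groups, against 9.46% of all genes. The summed level of the secretion RABs was 115, 117 and 106 FPKM in the BCB-negative oocytes, against 119, 122 and 130.2 FPKM in the BCB-positive ones, so the classes did not overlap, although none of the 9 compared members was 1.5-fold apart. The means were 113 ± 5.38 and 124 ± 5.89 FPKM (SD, n = 3 each). With size factors the sums of the classes overlapped, at 108 to 119 and 114 to 118 FPKM. This group has 12 listed members, and the sums of the other roles overlapped between classes. On a common sum of FPKM those of the endoplasmic reticulum and Golgi RABs did not, at 197 to 247 FPKM in the BCB-negative class and 266 to 279 FPKM in the BCB-positive class.

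The spread between oocytes differed widely among members. Of the 38 compared members, 11 ranged less than 2-fold over the 6 oocytes and 13 ranged 5-fold or more or included a 0. With a mean of 10 FPKM or more, the median pooled SD was 0.36 for 23 RAB genes and 0.45 for 5482 genes in all. Among these the highest SDs were those of RAB11B, RAB32 and RAB28, with 1.55, 0.92 and 0.80 at means of 20 FPKM or more. In 20 bins of equal gene number by level, 22 of 38 members lay below the median SD of all genes in their bin. BCB-positive oocyte 3 held the highest value for 6 of 38 members, or 15.8%, and for 32.6% of all genes.

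**Figure D4:**
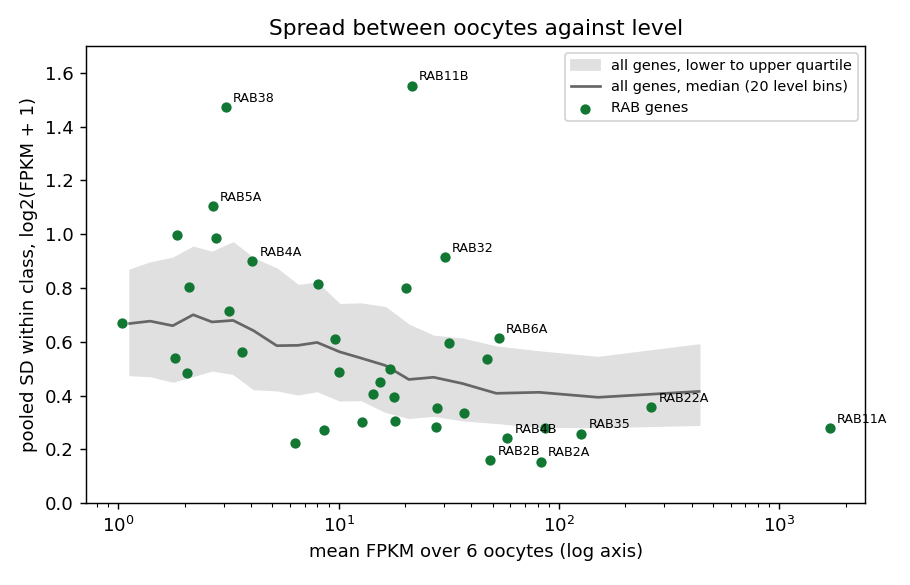
Pooled SD between oocytes of a class in log2(FPKM + 1) against the mean FPKM on a log axis, for 38 RAB genes (green) and for all 11493 compared genes (line: median of 20 level bins, band: lower to upper quartile). RAB2A and RAB2B lie under the band at 0.16, and RAB11B, at 1.55, lies far above it.

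Paralogues were used unequally, and the leading member was the same in every oocyte for most sets. RAB1A, RAB11A, RAB27A and RAB40C each held at least 96.8% of their set's FPKM in every oocyte, RAB6A at least 83.4%, RAB4B at least 84.1% and RAB5C at least 82.1%. RAB8B led RAB8A in every oocyte with at least 63.5%, and RAB2A led RAB2B with at least 58.7%. The RAB3 set had no fixed leader, with RAB3A, RAB3B and RAB3C each first in some oocytes. RAB11A, RAB1B and RAB5A belong to the short gene models described above. By counts instead of FPKM, RAB11A still held at least 92.2% of its set and RAB5C at least 90.5%.

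Of the 18 members with more than 1 listed transcript, 9 had at least 5 FPKM in every oocyte. None of the 9, nor of 11 with at least 2 FPKM, had a transcript whose share separated the classes. The main transcript of RAB4B held 91.5% to 98.4%. Shares of RAB6A and RAB18 varied greatly between oocytes. The RAB18 transcript of 2627 bases ran from 0% to 100% within the BCB-negative class and from 0% to 67.2% within the BCB-positive class.

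The machinery that anchors and recycles RAB proteins was led by GDI2 and RABAC1. GDI2, a GDP dissociation inhibitor that extracts RABs from membranes, was at 562, 617 and 631 FPKM in the BCB-negative oocytes, against 485, 486 and 503 FPKM in the BCB-positive ones. All BCB-positive oocytes lay below the others, with means of 603 and 492 FPKM and a difference of -0.29 (pooled SD 0.07), less than 1.5-fold. On a common sum of FPKM the classes overlapped, at 544 to 615 and 467 to 587 FPKM. RABAC1, a receptor for prenylated RABs, was at 625, 592 and 639.6 FPKM in the BCB-negative oocytes, against 648, 363 and 299.7 FPKM in the BCB-positive ones. Of 13 genes of prenylation and GDP dissociation, 11 were compared and 2 were without overlap and at least 1.5-fold higher, against 5.75% of all genes. These were FNTA, the subunit shared by farnesyltransferase and the type I enzyme that attaches geranylgeranyl (GGTase), at 1.35 (0.66 without BCB-positive oocyte 3), and PGGT1B, the other subunit of the latter, at 1.72 with at most 0.46 FPKM in BCB-negative oocytes. PGGT1B rested on 138 expected counts. Neither belongs to the RAB GGTase, whose subunits RABGGTA and RABGGTB averaged 24.1 and 20.1 FPKM, with overlap. The median difference of the list was -0.06 and none of it was 1.5-fold lower.

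Among 49 exchange factor genes 30 were compared, of which 2 were without overlap and at least 1.5-fold higher and 1 lower, against 5.75% and 2.66% of all genes. CCZ1, part of the exchange factor of RAB7, was at 106, 122 and 84.1 FPKM in the BCB-negative oocytes, against 136, 207 and 299 FPKM in the BCB-positive ones, a difference of 0.98 (pooled SD 0.44). MON1A, a partner of CCZ1, was in the opposite order, at 31.7, 30.7 and 40.5 FPKM against 22.4, 27.6 and 22.4 FPKM, with a difference of -0.49. TRAPPC9, a subunit of the TRAPP complex that activates RABs of the secretory path, differed by 1.23. Without BCB-positive oocyte 3 these differences were 0.70 for CCZ1 and 0.88 for TRAPPC9. HPS1, part of the exchange factor of RAB32 and RAB38, was the lower gene, at -0.80 and at most 3.42 FPKM. The most abundant genes of the list, TRAPPC4 and TRAPPC1, averaged 226 and 183 FPKM, with overlapping classes. The median difference of the list was 0.05.

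The list of GTPase activating proteins held 41 genes, and whether each acts on a RAB was not tested. Of these 27 were compared, of which 3 were without overlap and at least 1.5-fold higher and 0 lower, against the same shares of all genes. TBC1D5, which acts on RAB7, averaged 0.67 and 2.83 FPKM, and TBC1D30 4.76 and 8.67 FPKM. For TBC1D32, a TBC domain gene of ciliary signalling, the difference was 0.79, or 0.45 if BCB-positive oocyte 3 is left out. The most abundant genes of this list, TBC1D14 and TBC1D7, averaged 79.4 and 78.7 FPKM with overlap. The median difference was -0.06.

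Of 59 effectors 37 were compared, of which 1 was higher and 1 lower by the same measure, again against 5.75% and 2.66% of all genes. RILP, which links RAB7 on lysosomes to dynein, was at 16.5, 11.8 and 6.28 FPKM in the BCB-negative oocytes, against 5.29, 4.02 and 3.53 FPKM in the BCB-positive ones, a difference of -1.17 (pooled SD 0.48). The BCB-negative values were spread over a wide range, and the lowest of them lay close to the highest BCB-positive value. MYO5A, a myosin motor recruited by RAB27A, averaged 0.98 and 2.35 FPKM. SYTL3, a RAB27 effector, was the most abundant effector at 407 to 504 FPKM, a level far above RAB27A itself, and SPIRE1, an actin nucleator on RAB11A vesicles, averaged 52.1 FPKM, both with overlap. The median difference was 0.07.

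Over the 4 lists 105 genes were compared, of which 8, or 7.62%, were without overlap and at least 1.5-fold higher and 2, or 1.90%, lower, against 5.75% and 2.66% of all genes. The split was 6 and 4 with size factors, where the share of all genes by this measure was not computed. The median difference was 0.01, against 0.11 for all genes. Of 10 RAB-like genes outside the family's rule, 6 were listed and 4 compared, of which 3 were at least 1.5-fold higher, against 18.9% of all genes, and none was without overlap. Without BCB-positive oocyte 3 all 3 came under 1.5-fold, with differences of 0.089 for RABL2B, 0.32 for RABL3 and 0.53 for RAN. Among them RAN, the nuclear transport GTPase, was at 147, 112 and 84.5 FPKM in the BCB-negative oocytes, against 135, 193 and 249 FPKM in the BCB-positive ones.

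**Figure D5:**
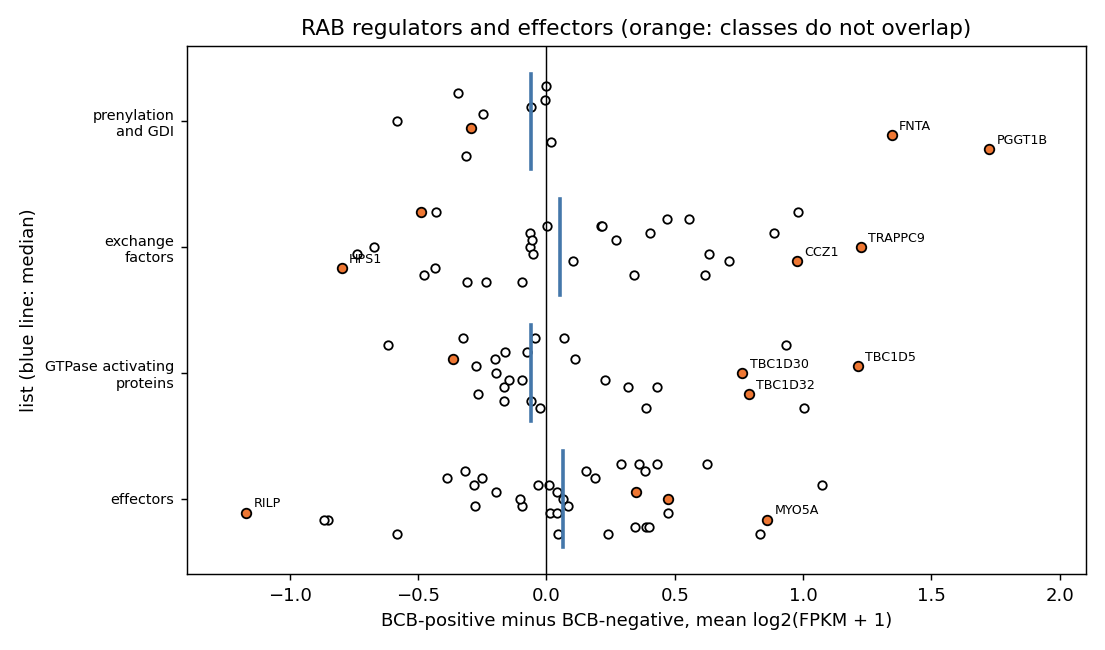
BCB-positive minus BCB-negative difference in mean log2(FPKM + 1) for 105 compared regulators and effectors of RAB GTPases in 4 lists, 1 point per gene, with a blue line at each list's median. Named orange points do not overlap between classes and are at least 1.5-fold apart, from RILP at -1.17 to PGGT1B at 1.72.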

How the data were processed

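Each library was 1 oocyte, and the labels' protocols describe cDNA primed with poly(dT) of 24 nt, amplified by PCR and sequenced in a shared lane. BWA, Cufflinks and RSEM and the build Sscrofa10.2 appear in the submitters' processing notes, without role or version. The expected counts deposited by the authors are estimated reads per gene and transcript. The FPKM deposited by the authors are scaled to length and library size. Symbols came from a RefSeq table of Sscrofa11.1, used for names and overlaps only: 13936 genes had a match of ID and 3 of a transcript, and 5361, with 8.63% to 10.2% of an oocyte's counts, did not.

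Class differences are of mean log2(FPKM + 1) over genes whose mean reached 1 FPKM, with the pooled SD between oocytes. A gene is called without overlap where all 3 oocytes of a class lie above the other 3. The calculation was tested on simulated data. The 50 members, role groups and lists of regulators were chosen with earlier results of these data known. The named genes are every RAB gene, with 6 values for those without overlap, the 12 most abundant and each role's leader. Of each list they are the 2 most abundant and up to 4 per direction without overlap and 1.5-fold apart. Other 6-oocyte values of RAB genes, MON1A, RABGGTA and RABGGTB, and the sums under each scaling, were added after their values were seen. Alternatives were pseudocounts of 0.1 and 5 FPKM, 2 scalings, CPM computed from the counts, other filters, the ratio of class means and leaving out each oocyte. Analyses used Python 3.11.15, NumPy 2.4.6, pandas 2.3.3 and SciPy 1.17.1.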

Additional observations from a re-analysis of the deposited data

How the results depend on the processing

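No paired analysis was possible because the oocyte numbers pair no samples in the labels and no test was made. Of 456 differences of the 38 compared members under 12 other settings, 1 moved by 1 SD between oocytes or more. This was RAB4A, at 2.76 with a pseudocount of 0.1 FPKM. Leaving out 1 of 3 oocytes cannot, by construction, move a difference by 1 pooled SD, so this count is no measure of those settings. In them RAB11B ran from -0.76 without BCB-positive oocyte 1 to 1.05 without BCB-positive oocyte 3. RAB4B, RAB14 and RAB24 kept their direction in all 12 settings. Classes without overlap cannot change order by leaving out an oocyte, by another pseudocount or by the ratio of class means. For these genes only the changes of scaling, CPM included, could have reversed the direction. The signs of RAB2A, RAB8B and RAB11B depend on the scaling. Members at least 1.5-fold higher, 5 as reported, numbered 2 with a pseudocount of 5 FPKM, 3 with size factors and 3 over genes of at least 5 FPKM. Those lower, 2 as reported, numbered 4 with a pseudocount of 0.1 FPKM, 1 with a pseudocount of 5 FPKM, 1 on a common sum and 1 over genes of at least 5 FPKM. Of all genes of at least 5 FPKM, 16.3% were higher and 8.31% lower by fold. Members without overlap that were lower, 1 as reported, numbered 2 with size factors, against 5.38% of all genes. Members both without overlap and 1.5-fold apart numbered 1 higher with a pseudocount of 5 FPKM, 1 higher with size factors and 0 lower on a common sum. Regulators and effectors, 8 higher and 2 lower as reported, numbered 5 and 1 with a pseudocount of 5 FPKM, 5 and 1 over genes of at least 5 FPKM and, lower, 4 with size factors. Their median, 0.01, was -0.089 with size factors and 0.10 on a common sum. With each oocyte left out in turn, the members gave 4 to 8 higher and 2 to 6 lower by fold, 3 to 6 higher and 1 to 9 lower without overlap, and 1 to 5 higher and 1 to 4 lower by both, with a median from -0.057 to 0.037. The regulators gave 8 to 15 higher and 3 to 7 lower, with a median from -0.045 to 0.099. With fewer oocytes fewer genes overlap by construction. With each oocyte left out in turn, 11.5% to 17.2% of all genes were higher and 7.46% to 10.17% lower without overlap. The shares of all genes by fold, or by both measures, were not computed with an oocyte left out, nor under the pseudocounts and scalings. Members with few reads, such as RAB5A with 82 counts, and members under 1 FPKM are limited by depth. Why the other values moved was not tested.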
